A study of Mus musculus with 20 samples.

Results

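The cells described here are the Slc17a7-type excitatory neurons without Slc17a6 of the mouse basolateral amygdala (BLA). They were chosen by their own counts. A barcode of the 10x Chromium droplet libraries was kept when at most 12.5% of its unique molecular identifiers (UMIs, each of which tags 1 captured RNA molecule) were mitochondrial and at least 200 genes were detected. A kept barcode became a member when Slc17a7, Neurod2, Neurod6, Cpne7, Nptxr and Sv2b summed to at least 3 UMIs, Slc17a6, Gad1 and Gad2 were all at 0, and 10 glial, vascular and microglial markers summed to at most 2 UMIs. Of 5908 kept barcodes in 9 libraries, 651 met these limits, and the 10 BLA libraries of the series held 8305 kept barcodes. Levels of the selecting genes describe the choice and support nothing further.

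Slc17a7 encodes VGLUT1, the transporter that loads glutamate into synaptic vesicles of cortical, hippocampal and BLA projection neurons, whereas Slc17a6 encodes VGLUT2, the transporter typical of thalamic, hypothalamic and several amygdalar nuclei. The principal neurons of the BLA are glutamatergic, spiny and cortex-like, and they carry the learned value of stimuli to the striatum, the central amygdala and the cortex. Neurod2 and Neurod6 are basic helix-loop-helix factors of forebrain excitatory neurons, Nptxr is the receptor of the neuronal pentraxins, which gather AMPA receptors at synapses, Sv2b is a synaptic vesicle protein, and Cpne7 is a calcium-dependent membrane-binding copine.

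All mice were wild-type C57BL/6 animals of 13 weeks, males by the study's methods, with 1 BLA library each. The groups were BCD/Sal (vehicle and saline; mice 9901 and 9947), BCD/Ket (vehicle and ketamine; mice 9946, 9949 and 9986), CORT/Sal (corticosterone and saline; mouse 9969) and CORT/Ket (both agents; mice 9967, 9968 and 9971). By the methods, CORT mice drank corticosterone at 35 µg/ml over 6 weeks as a model of chronic stress, and Ket mice received ketamine at 10 mg/kg, 24 h before the brains were taken. BCD is the cyclodextrin vehicle by the labels, while the methods for these libraries speak of plain drinking water for the controls. The sample labels and the study's account of its experiment give the BLA as the tissue, while the extraction text of the labels and methods names the prefrontal cortices for every library. A second CORT/Sal library, of mouse 9970, was left out by the selection rule.

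The excitatory part of the label was checked on genes the rule did not use, beside the 166 GABAergic neurons of the same libraries (median 2959 UMIs, against 1838 in members). Tbr1, a factor of glutamatergic neurons, was seen in 12.9% of members and 0 GABAergic neurons, Neurod1 in 9.52% and 0, and Nrn1, a surface protein of excitatory neurons, in 37.2% and 0.602%. Camk2a, the calmodulin kinase of excitatory synapses, had a UMI in 81.3% and 65.7%, and Nrgn, a calmodulin-binding protein of dendritic spines, in 53.8% and 43.4%. Tbr1, Neurod1 and Nrn1 were thus nearly absent from the GABAergic neurons, while Camk2a and Nrgn were detected widely in both types at these unequal depths. With barcodes thinned to 1000 UMIs, as described below, Camk2a was seen in 68.5% of members and 27.6% of GABAergic neurons, and Nrgn in 44.8% and 29.5%. In the 87 Slc17a6-expressing neurons described below, Tbr1 was seen in 27.6% and Nrn1 in 55.2% before thinning, at a median of 3473 UMIs. Thinned, Tbr1 was seen in 4.58% of members and 8.64% of Slc17a6 neurons, Nrgn in 44.8% and 55.6%, and Camk2a in 68.5% and 48.1%. Tbr1 and Nrgn were thus not particular to the members among excitatory neurons. Mef2c, another excitatory marker, went the other way before thinning (56.2% of members, 62.7% of GABAergic neurons). Of 15 such markers, 10 could be tested below, with 7 higher in members (7.65% of all genes tested) and 0 lower (4.52%). The factors Sim1, Otp and Tfap2c, which mark other amygdalar and hypothalamic lineages, had 0 UMIs in all 651 members and in the GABAergic neurons too. Of the 18 BLA subtype genes, 15 had a UMI in members, and the share of barcodes was above that in GABAergic neurons for 8 and below it for 7. Negr1 was found in 63.6% of members, Meis2 in 32.0%, Lypd1 in 27.2%, Etv1 in 25.2%, Fezf2 in 5.38% and Rspo2 in 3.53%. In GABAergic neurons the shares were 64.5%, 42.8%, 24.1%, 13.9%, 0.602% and 1.2048% in the same order. The shares lower in members, which had the lower median depth, included Sema5a (3.69% against 22.3%), Ppp1r1b (6.30% against 21.7%) and Otof (14.3% against 20.5%). These differences in share were not tested. In the test against GABAergic neurons described below, 6 of the 18 could be tested, of which Etv1 was higher and Meis2 and Cdh13 were lower. The shares over all genes of that test were 7.65% higher and 4.52% lower. The interneuron genes Lhx6, Dlx2 and Dlx5 were at 0 in members, and Sst, the somatostatin gene, had a UMI in 7 members, against 11.4% of GABAergic neurons.

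Promoters are shown for a selecting gene and for Nrgn, the most abundant of the 3 genes that carry the same E-box letters among the 15 named below as highest in members against GABAergic neurons. Basic helix-loop-helix proteins of the Neurod family bind E-boxes, and the letters searched were CAGATG and CATCTG, which are each other's reverse complement, so both strands are covered. Each sequence is the 250 bases before the start site in RefSeq (GRCm38.p6), 5′ to 3′ on the gene's strand, with the matched letters in capitals.
Neurod2 (chr11:98329646-98329895, minus strand): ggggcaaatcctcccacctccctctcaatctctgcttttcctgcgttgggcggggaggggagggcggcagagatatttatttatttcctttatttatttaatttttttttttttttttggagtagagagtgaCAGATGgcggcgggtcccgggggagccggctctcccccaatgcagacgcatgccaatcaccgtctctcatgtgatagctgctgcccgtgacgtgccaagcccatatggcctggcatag
Nrgn (chr9:37552746-37552995, minus strand): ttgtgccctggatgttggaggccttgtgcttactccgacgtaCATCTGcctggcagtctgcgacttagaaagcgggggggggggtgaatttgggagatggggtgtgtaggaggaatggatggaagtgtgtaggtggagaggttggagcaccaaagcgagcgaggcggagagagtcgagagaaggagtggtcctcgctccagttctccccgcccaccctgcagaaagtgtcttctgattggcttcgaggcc
Some genes have several listed starts, and a gene was counted once where any of its promoters held the letters. They were present for 4409 of 27025 genes of the RefSeq table (16.3%) and for 1 of 4 matched selecting genes, Neurod2. Among the 15 genes named below as highest in members, 3 of the 11 matched genes had them (Nrgn, Nwd2 and Zbtb18). Of the 15 lowest, 0 of 12 matched genes did. A match describes letters and is not a binding site.

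The depth behind the members differed greatly between libraries. The 275 members of BCD/Sal mouse 9901 held 594349 UMIs and the 45 of mouse 9947 held 186362. In BCD/Ket there were 34 members with 104441 UMIs (mouse 9946), 12 with 29973 (9949) and 93 with 241569 (9986). CORT/Sal mouse 9969 gave 35 members with 288520 UMIs, and CORT/Ket gave 20 with 85982 (9967), 17 with 69461 (9968) and 120 with 353242 (9971). Mice 9949 and 9968 were thus the least well measured, and in mouse 9968 a single barcode held 48.1% of the members' UMIs, with 5293 hemoglobin UMIs. The median member had 1838 UMIs and 1189 genes, and no barcode was shared between any of the 36 pairs of libraries.

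The libraries of 3 mice, 1 from each tested group, stood apart (see the plot of Gm42418, mitochondrial and oxidative phosphorylation transcripts). Levels are given throughout as UMIs per 1000000 UMIs of the members in a library (CPM), which need no correction for gene length because each molecule is counted once. Gm42418, a transcript annotated over ribosomal RNA repeats, was at 49152 CPM in BCD/Sal mouse 9947, 15952 in BCD/Ket mouse 9946 and 35065 in CORT/Ket mouse 9967, and between 492 and 2235 CPM in the other 6 libraries. The same 3 libraries had a median mitochondrial share per member of 9.33%, 9.70% and 9.30%. Fits without each of them in turn, and with a term for the 3 together, left both treatment contrasts at 0 or 1 calls. Summed nuclear oxidative phosphorylation genes followed another order, from 6927 CPM (9901) to 18044 CPM (9969).

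**Figure D1:**
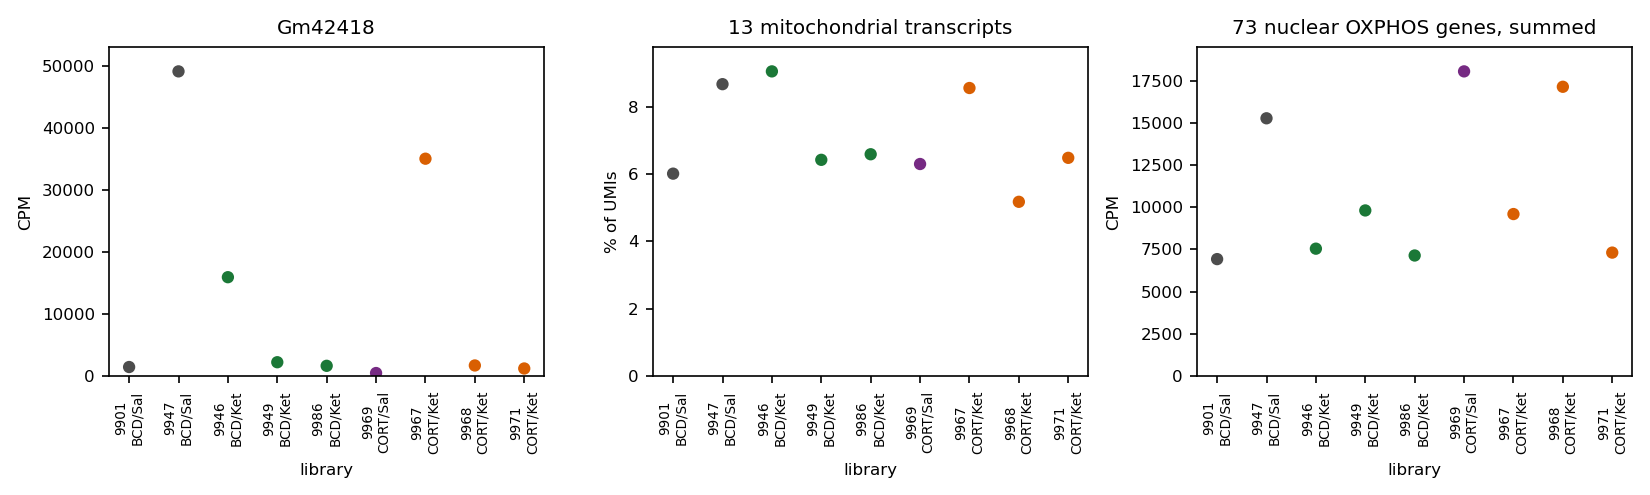
Level of Gm42418 (CPM), share of UMIs from 13 mitochondrial transcripts (%) and summed level of 73 nuclear oxidative phosphorylation (OXPHOS) genes (CPM) in the members of each library, coloured by treatment group. Mice 9947, 9946 and 9967 are high in the first 2 panels, and mice 9969, 9968 and 9947 in the third.

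RNA of other cell types was found in the members, at levels that the rule itself limits. The rule allowed at most 2 UMIs over 10 glial and vascular genes, some of which are in the lists below, and fixed Gad1 and Gad2 of the interneuron list at 0. The 12 astrocyte genes summed to between 536 and 3069 CPM, highest in BCD/Ket mouse 9949, with all 12 detected and the glutamate transporter Slc1a2, which neurons also carry, as the most abundant. The 12 microglial genes summed to at most 57.6 CPM with P2ry12 at 0, the 11 oligodendrocyte genes to between 76.3 and 567 CPM with Opalin at 0, and the 14 interneuron genes to between 21.5 and 236 CPM, most of it the cannabinoid receptor Cnr1. The 5 erythroid genes reached 76475 CPM in CORT/Ket mouse 9968 and at most 33.4 CPM elsewhere.

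The selecting genes differed in how evenly they were carried. Slc17a7 (NCBIM37 chr7:52419291-52431508, plus strand) was the steady one, with a UMI in 85.6% of members. Its level was 1381 and 1427 CPM in BCD/Sal, 1398, 1635 and 1337 in BCD/Ket, 1400 in CORT/Sal, with CORT/Ket at 1233, 965 and 1113. The 9 libraries lay at 1321 ± 195 CPM (SD). Cpne7 (NCBIM37 chr8:125641274-125659082, plus strand) was the most uneven, at 939 and 37.6 CPM in BCD/Sal, 469, 634 and 1366 in BCD/Ket, 86.6 in CORT/Sal, with CORT/Ket at 221, 374 and 628. The 2 BCD/Sal libraries alone spanned most of that range. Neurod2 ran from 158 to 300 CPM and Neurod6 from 3.5 to 124 CPM. Of the 6 selecting genes, 244 members (37.5%) carried 3 and 30 members carried 1. At the edge, 107 members had exactly 3 marker UMIs (median depth 1001 UMIs), and 113 barcodes with 2 marker UMIs met every other limit (median 867). Another 70 barcodes failed by Slc17a6 alone and 75 by Gad1 or Gad2 alone.

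Members made up different shares of the kept barcodes in the 9 libraries (see the plot of shares). The share was 21.6% (exact binomial 95% interval 19.4 to 23.9%) and 18.0% (13.4 to 23.3%) in the 2 BCD/Sal libraries. It was 9.42%, 1.82% and 10.2% in BCD/Ket, 5.07% in CORT/Sal, with CORT/Ket at 14.8%, 2.74% and 11.98%. The BCD/Ket libraries were all below the BCD/Sal libraries, with means of 7.14% ± 4.62 (SD, n = 3) against 19.8% ± 2.54 (n = 2). The exact permutation test, two-sided, gave p = 0.1 (adjusted p = 0.2 over 2 tests), which is the smallest p the design allows. CORT/Ket, at 9.84% ± 6.31 (n = 3), overlapped BCD/Ket, with a difference of 2.71 percentage points (exact permutation p = 0.5, adjusted p = 0.5). As a share of the 3 neuron types alone, members were 88.1% and 33.8% in BCD/Sal and 55.7%, 48.0% and 83.8% in BCD/Ket. On that denominator the ketamine difference turned to 1.52 percentage points, so the direction depended on the cells counted with the members. The intervals cover counting error only, and survival of each type in dissociation cannot be told apart from its number in the tissue.

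**Figure D2:**
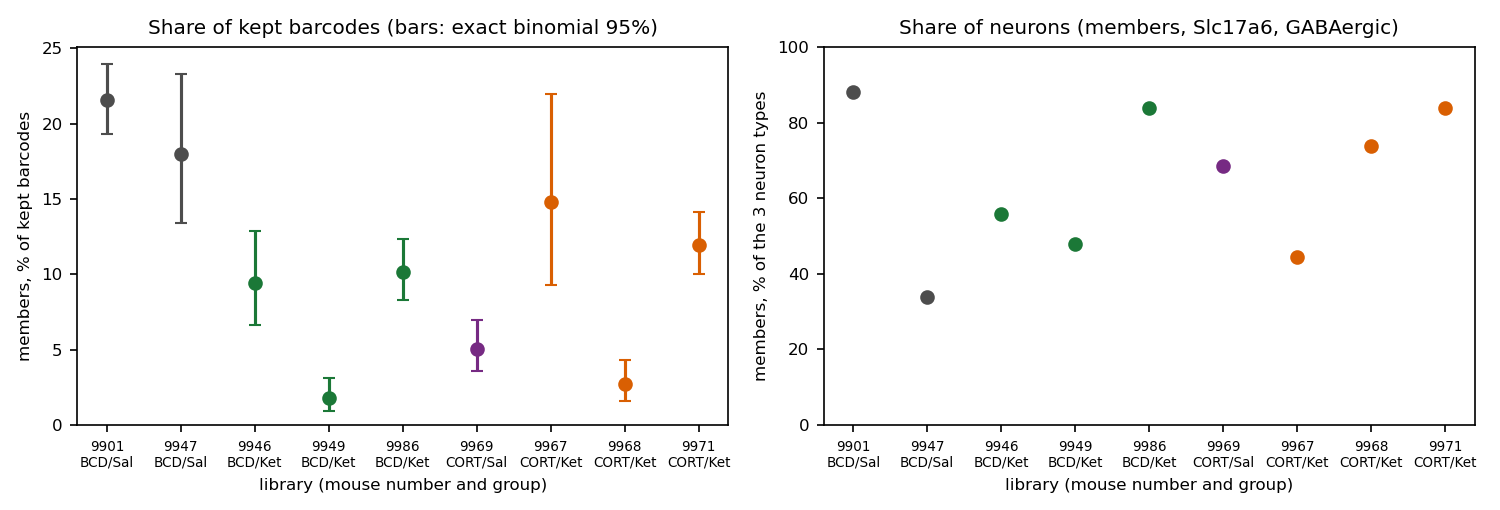
Members as a share of kept barcodes (left, %, bars are exact binomial 95% intervals) and of the 3 neuron types (right, %), by library and coloured by treatment group. On the left the BCD/Sal libraries (18.0% and 21.6%) lie above the rest, and on the right they are the lowest and the highest of all.

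Members were then compared with GABAergic neurons of the same mice, on genes other than those that chose them. GABAergic neurons were kept barcodes with at least 2 UMIs of Gad1 and Gad2 and none of Slc17a7 or Slc17a6. Both types reached 10 barcodes in 6 mice, with 10 to 66 GABAergic barcodes each. Of 2012 genes tested with the mouse as a block, 245 passed an adjusted p of 0.05 (12.2%), 154 higher in members (7.65%) and 91 lower (4.52%), by the quasi-likelihood test of edgeR after Benjamini-Hochberg adjustment, and 469 had an unadjusted p under 0.05 (23.3%). The selecting genes were left out before the test. Since the types were gated on Slc17a7 and on Gad1 and Gad2, genes that travel with those markers differ by construction. Without the block 115 genes passed.

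The 15 genes highest in members were led by Nrn1, with genes of synaptic, secreted and nuclear proteins among them. Nrn1 (NCBIM37 chr13:36817494-36826346, minus strand), an activity-regulated surface protein that promotes neurite growth, was at 278, 440, 316, 240, 221 and 303 CPM in mice 9901, 9947, 9946, 9986, 9967 and 9971. In the GABAergic neurons of these mice it had 1 UMI in all, a pooled ratio of 157 (95% counting interval 28.0 to 6200).
Nrgn was at 1149, 3096, 2633, 1089, 2617 and 1056 CPM in members and at 109, 801, 520, 433, 187 and 102 CPM in GABAergic neurons of the same mice. It was higher in members by 2.53 on the log2 scale (SE 0.24, adjusted p = 8.04e-08 by edgeR). Slc30a3, which encodes the transporter that fills glutamatergic vesicles with zinc, lay between 137 and 354 CPM in members and between 0 and 73 CPM in GABAergic neurons (log2 fold 4.41, SE 0.50).
Nptx1, a neuronal pentraxin and so a ligand of the selecting gene Nptxr, lay between 279 and 478 CPM against 0 and 109 (log2 fold 3.68, SE 0.42). Fam19a1, a secreted chemokine-like peptide, had a log2 fold of 4.31 (SE 0.42), and C1ql3, a secreted synaptic organiser, 3.02 (SE 0.57). The remaining genes of the 15 highest were Lingo1, Nwd2, Ttc9b, Lmo3, Zbtb18, Olfm1, Car10, Bsn and Kcnk9, with log2 folds between 1.74 and 2.46. Of the 15, C1ql3 lost its call with DESeq2, Car10 with at least 1000 genes per barcode and without mouse 9947, and Lmo3 without the block. The same direction in all 6 mice was a condition for being among the 15, as it was for the 15 lowest, so it adds nothing here.

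The 15 genes lowest in members were led by Dlx6os1, Slc32a1 and Adarb2, which go with the Gad1 and Gad2 gate that defined the other type. Slc32a1, the vesicular GABA transporter, was at 0 to 35 CPM in members and 235 to 476 CPM in GABAergic neurons (log2 fold -6.03, SE 0.45, adjusted p = 1.20e-10 by edgeR). Dlx6os1, an antisense RNA of the Dlx locus, had a log2 fold of -6.29 (SE 0.34), and Adarb2, an interneuron marker, of -5.82 (SE 0.36). Slc32a1 was detected in 0.768% of members and 63.3% of GABAergic neurons. Kcnc1, the Kv3.1 channel of fast-spiking cells, had a log2 fold of -1.77 (SE 0.23), the granin Scg2 of -1.84 (SE 0.27) and Lamp5, a membrane protein of some interneurons, of -1.65 (SE 0.26). Spock3, Grip1, Vstm2a, Necab1, Gnal, Nyap2, Nap1l5 and Cacna2d3 were also among the 15, with log2 folds between -2.68 and -1.67.

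**Figure D3:**
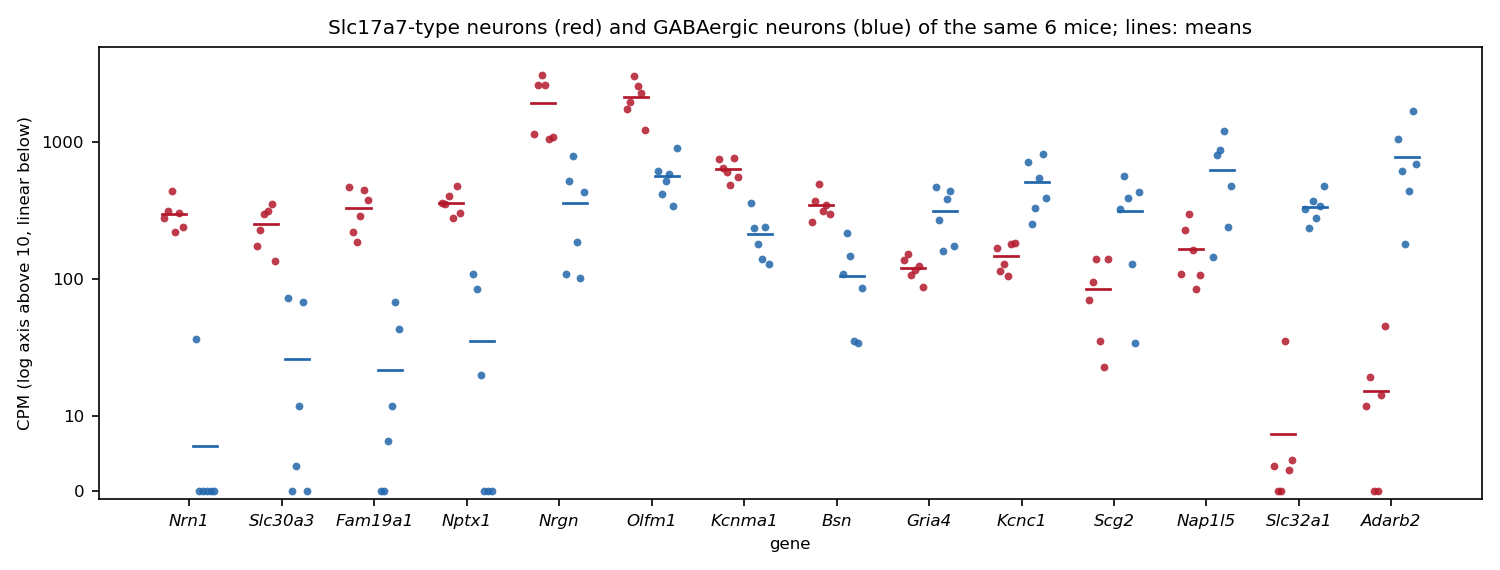
Level (CPM; linear below 10 and logarithmic above) of 14 genes in members (red) and in GABAergic neurons (blue) of the same 6 mice, with lines at the means. Nrn1 is at 0 in the GABAergic neurons of 5 mice, and Adarb2 and Slc32a1 are at most 46 CPM in members.

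Gene groups of the synapse differed in both directions between the types. Their counts are to be read beside the 7.65% of all tested genes that were higher and the 4.52% that were lower, and the lists were not tested as groups. Of 10 tested genes of the other excitatory markers, 7 were higher in members and 0 lower (median log2 fold 1.15, against 0.00 over all genes tested). They include Camk2a (1.16), Arpp21 (1.17), a cAMP-regulated phosphoprotein, Ptk2b (1.23), a calcium-activated kinase, and Lmo4 (1.14), a transcriptional cofactor. Of 8 tested genes of AMPA receptors and their partners, 3 were higher (Gria3 by 0.76, Nptx1 and Olfm1) and 2 lower (Gria1, log2 fold -0.76, and Gria4, -1.304). Gria4 was at 87 to 153 CPM in members and 161 to 471 CPM in GABAergic neurons, lower in members in 6 of 6 mice, whereas Gria1 was lower in 5 of 6. The NMDA receptor subunit Grin2b was higher in members by 0.48 (SE 0.16, adjusted p = 0.0495 by edgeR), the only one of 4 tested NMDA subunits to pass.

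Among 19 presynaptic genes 4 were higher (Snap25, Syn1, Cplx2 and Bsn) and 1 was lower, Sv2a. Sv2a, the vesicle protein paralogous to the selecting gene Sv2b, was at 302 to 488 CPM in members and 613 to 1298 CPM in GABAergic neurons (log2 fold -1.07, SE 0.20). Among 28 ion channel genes 6 were higher, led by Kcnma1, the large-conductance calcium-activated potassium channel (log2 fold 1.61, SE 0.21), and 3 lower (Kcnc1, Kcnd2 and Cacna2d3). Of 21 neurexin and adhesion genes 2 were higher, among them Cadm3 (0.80), and 1 was lower (Nrxn3, -0.74), near the shares over all genes. Celsr2, an atypical cadherin of the planar cell polarity (PCP) pathway that the study followed, was at 215 to 373 CPM in members and 109 to 216 CPM in GABAergic neurons, higher in 6 of 6 mice by 0.76 on the log2 scale (SE 0.25, adjusted p = 0.0402 by edgeR). Of 38 nuclear oxidative phosphorylation genes, 0 passed (0 at an unadjusted p under 0.05).

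Against the Slc17a6-expressing excitatory neurons, fewer genes separated the members. These neurons met the same limits on mitochondrial share, genes, glial UMIs and Gad1 and Gad2, but had at least 1 UMI of Slc17a6, and Slc17a6 counted toward the 3 marker UMIs. They numbered 87, with a median of 3473 UMIs, and 70 of them also reached 3 UMIs of the 6 selecting genes. Both types reached 10 barcodes in 2 mice, 9901 and 9947, so the comparison rests on 2 pairs of summed libraries, both BCD/Sal. Of 3549 genes tested by edgeR with the mouse as a block, 7 passed (0.197%), 2 higher in members (0.0564%) and 5 lower (0.141%), and 188 had an unadjusted p under 0.05 (5.3%). They are the transcription cofactor Lmo3 and the pentraxin Nptx1 on the higher side, and the neuropeptide gene Cck, the granin Scg2, the homeobox gene Pbx3, the axon guidance gene Sema5a and Nap1l5 on the lower.

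Cck (NCBIM37 chr9:121398943-121404807, minus strand) was at 498 CPM in members and 795 CPM in Slc17a6 neurons of mouse 9901, and at 295 and 1251 CPM in mouse 9947. It was lower in members of both mice, with a log2 fold of -1.34 (SE 0.24, adjusted p = 5.34e-05 by edgeR). Scg2 (NCBIM37 chr1:79431244-79436665, minus strand) was at 70.7 against 249 CPM in mouse 9901 and 140 against 448 CPM in mouse 9947 (log2 fold -1.72, SE 0.34, adjusted p = 0.000618 by edgeR). Both are cargo of dense-core vesicles, and Scg2 was also among the genes lower than in GABAergic neurons.
Lmo3 was at 188 against 93.5 CPM and at 397 against 112 CPM (log2 fold 1.56, SE 0.38, adjusted p = 0.0418 by edgeR). Nptx1 was at 358 against 203 CPM and at 408 against 112 CPM (log2 fold 1.36, SE 0.34). Lmo3 and Nptx1 were also among the genes higher than in GABAergic neurons. Pbx3 rests on few molecules, with 4 and 2 UMIs in members and 6 and 9 in Slc17a6 neurons.
Pcp4, Fam19a1 and Ntng1 came next and did not pass (adjusted p between 0.0610 and 0.0897 by edgeR). With Slc17a6 neurons held to 3 UMIs of the selecting genes, Cck alone passed and Lmo3, Nptx1 and Scg2 no longer did. With at least 5 marker UMIs 3 genes passed (Pbx3, Sema5a and Cck). DESeq2 called 0 genes, edgeR without the block 0, and edgeR with at least 5 barcodes of each type (8 mice, chosen after seeing the data) 20 genes, among them Cck, Scg2, Nap1l5, Lmo3 and Nptx1.

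Detection per barcode was compared at equal depth. Every barcode with at least 1000 UMIs was thinned to 1000, which left 502 members, 81 Slc17a6 neurons and 156 GABAergic neurons. Slc17a7 was then seen in 70.1% of members, 50.6% of Slc17a6 neurons and 0 of the GABAergic neurons that were gated without it. It is also a selecting gene of the members, whereas Slc17a6 neurons could reach the 3 marker UMIs through Slc17a6. The shares of Slc17a7, here and before thinning, are thus set in part by the gates and support nothing further. Nrn1 was seen in 20.9%, 19.8% and 0%, Nptx1 in 25.1%, 19.8% and 3.21%, and Lmo3 in 17.5%, 4.94% and 5.77%. Cck was seen in 23.5% of members, 39.5% of Slc17a6 neurons and 8.33% of GABAergic neurons, and Scg2 in 6.97%, 21.0% and 23.7%. Nrn1 was thus seen in both excitatory types, and Lmo3 most often in members. Before thinning, Slc17a7 had a UMI in 85.6%, 67.8% and 0%, at median depths of 1838, 3473 and 2959 UMIs.

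Members were not uniform. Clustering of the 651 members alone gave 5 clusters, which are described by their leading genes and were not tested. Cluster 0 (165 members) was led by Otof, which encodes otoferlin, and held Rgs6. Cluster 1 (154 members) was led by Fibcd1, a receptor gene known from hippocampal CA1, with the receptor tyrosine kinase gene Kit, Trpc4, Cpne7 and the transcription factor gene Zbtb20. Fibcd1 had a UMI in 30.5% of its members and 1.61% of the others, and Cpne7 in 92.9% and 40.6%. Of the 7 hippocampal marker genes, 3 (Fibcd1, Zbtb20 and Dkk3) were among its leading genes, while Wfs1 was among those of cluster 4. Cluster 1 keeps its number here, and whether its members came from hippocampal tissue in the dissection was not tested.

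The other clusters were led by other genes. Cluster 2 (137 members) held the astrocyte genes Apoe, Plpp3, Aldoc and Slc1a3 among its leading genes and stays unnamed. Apoe had a UMI in 25.5% of its members and 12.3% of the others. Cluster 3 (130 members, median 3882.5 UMIs) was led by Ttc9b, with Pcp4, Egr1, Gm42418 and oxidative phosphorylation genes. Cluster 4 (65 members, median 3946 UMIs) was led by Ebp, a sterol isomerase gene, followed by Penk, the enkephalin precursor gene, Synpr and Wfs1. It also held the activity-regulated genes Btg2 and Vgf. The median depths of clusters 0, 1 and 2 were 1432, 1647 and 1421 UMIs.

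The libraries drew on these clusters unequally (see the plot of clusters by library). All 45 members of BCD/Sal mouse 9947 were in cluster 3, as were 61.8% of BCD/Ket mouse 9946 and 15 of 20 in CORT/Ket mouse 9967, the 3 libraries high in Gm42418. Cluster 1 held 27.6% and 0% of members in BCD/Sal, 29.4%, 8.33% and 48.4% in BCD/Ket, 5.71% in CORT/Sal, with CORT/Ket at 0%, 5.88% and 15.8%. The BCD/Sal libraries thus shared cluster 3 alone, and values of the members compare different clusters between libraries.

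**Figure D4:**
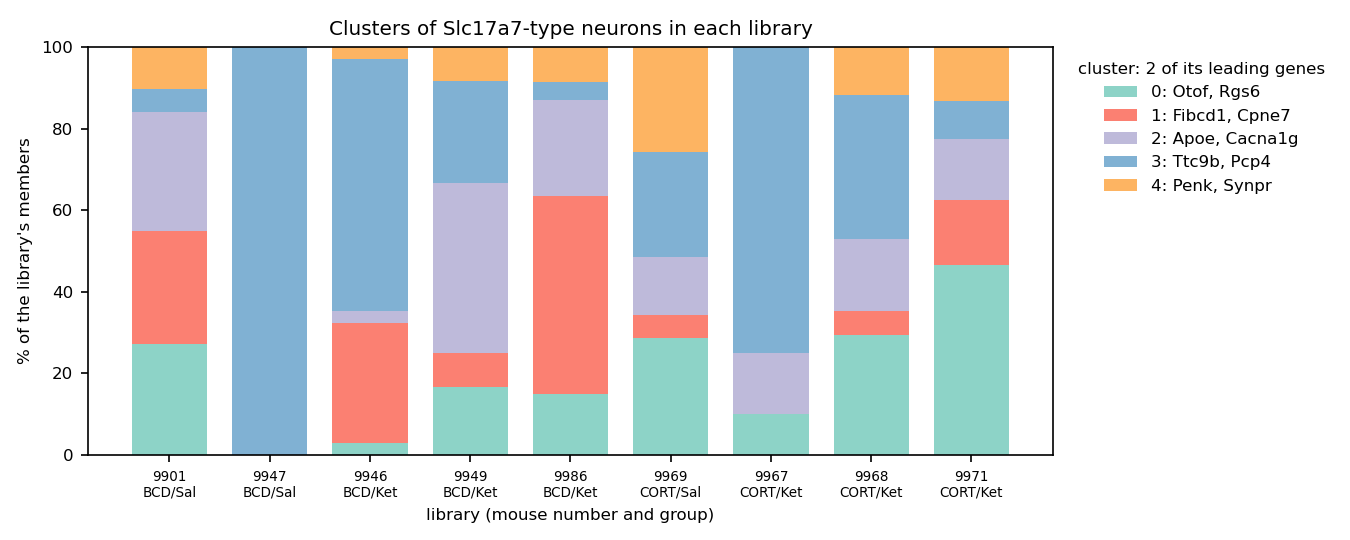
Share of each library's members (%) in the 5 clusters, which are labelled by 2 of their leading genes. Mouse 9947 lies wholly in cluster 3, and cluster 1 is largest in BCD/Ket mouse 9986 (48.4%).

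Ketamine without corticosterone was followed in BCD/Ket against BCD/Sal (3 libraries against 2), to ask what remained 24 h after an injection. Of 4418 genes tested, 0 passed by edgeR (0% called), 57 had an unadjusted p under 0.05 (1.29%), and DESeq2 also called 0 (57 at an unadjusted p under 0.05). The groups did not overlap for 533 genes (12.1%). The typical standard error of a log2 fold was 0.53. Fitted log2 folds ran from -2.97 to 3.04 and none passed, so changes well above that standard error could also go undetected with these libraries. The smallest p was that of Ngef (NCBIM37 chr1:89373409-89470445, minus strand), a guanine nucleotide exchange factor that acts behind ephrin receptors. Ngef was at 52.2 and 268 CPM in BCD/Sal and at 38.3, 0 and 41.4 CPM in BCD/Ket. The BCD/Ket values were all below BCD/Sal, though mouse 9901 was close to them (log2 fold -2.13, SE 0.69, adjusted p = 0.9997 by edgeR). In mouse 9949, 3 UMIs equal 100 CPM, so its 0 does not place it below the 52.2 CPM of mouse 9901.

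Some of the next genes rested on mouse 9947 in the same way. Rgs4, a brake on G protein signalling, was at 97.6 and 429 CPM in BCD/Sal and at 67.0, 133 and 53.8 CPM in BCD/Ket (log2 fold -1.93, SE 0.63), and the groups overlapped. Fibcd1 (NCBIM37 chr2:31668810-31701525, minus strand) was at 63.9 and 0 CPM in BCD/Sal and at 182, 0 and 298 CPM in BCD/Ket (log2 fold 2.26, SE 0.84), with a 0 in each group. Tenm3, a teneurin of synaptic wiring, was at 43.7 and 32.2 CPM against 172, 66.7 and 120 CPM, without overlap (log2 fold 1.65, SE 0.58). The 66.7 CPM of mouse 9949 are 2 UMIs, under the floor of 3 UMIs. Vstm2b (1.66), Sdhb (-1.70), Reln (-1.92), Rgs6 (-1.61), Kpna1 (-1.28) and Fscn1 (-1.75) complete the 10 smallest p, and all have an adjusted p of 0.9997 by edgeR.
Without mouse 9901 the contrast called 14 genes (6 higher), among them Ngef, Rgs4, Fibcd1, Zbtb20 and Cartpt. That setting leaves mouse 9947 as the lone BCD/Sal library, which is then assumed to vary like the other groups.

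Of the gene groups, the immediate early genes had a low median after ketamine without passing the test. Of 15 tested of 27 listed, 12 had a negative log2 fold, with a median of -1.13 against -0.03 over all genes, and 0 passed. Bdnf, the neurotrophin gene, was at 74.0 and 199 CPM in BCD/Sal and at 38.3, 167 and 20.7 CPM in BCD/Ket (log2 fold -1.57, SE 0.72, adjusted p = 0.9997 by edgeR). Egr1 was at 77.4 and 681 CPM against 354, 133 and 33.1 CPM, and mouse 9947 was the highest of these 5 libraries in both genes. The summed level of all 27 was 1398 and 3579 CPM in BCD/Sal and 2078, 2269 and 1076 CPM in BCD/Ket, so the groups overlapped. Dissociation and stress genes had 9 of 10 negative (median -0.43). Nuclear oxidative phosphorylation genes had 66 of 71 negative log2 folds (median -0.48), and their summed level was 6927 and 15266 CPM in BCD/Sal and 7545, 9809 and 7141 CPM in BCD/Ket. The groups overlapped there, and mouse 9901 was the lowest library of all. Presynaptic genes had 20 of 22 negative (median -0.40), and pan-neuronal genes 11 of 12 (median -0.42). Their summed levels overlapped, at 11276 and 18287 CPM in BCD/Sal against 15502, 10610 and 10792 CPM in BCD/Ket for presynaptic genes, and at 6392 and 11580 CPM against 9728, 5238 and 6036 CPM for pan-neuronal genes. The 3 libraries high in Gm42418 (9947, 9946 and 9967) were the highest of the 9 in both sums, and their part in these medians was not tested. Kainate and metabotropic glutamate receptor genes had 7 of 7 positive (median 0.42), and NMDA receptor genes 4 of 4 positive (median 0.25). The sums overlapped here too, at 1762 and 1036 CPM in BCD/Sal against 1867, 1501 and 2074 CPM in BCD/Ket for the former. For NMDA receptor genes they were 3367 and 1427 CPM against 3380, 3069 and 3635 CPM. Mouse 9947 was the lowest of the 9 libraries in both sums. None of the genes of these groups passed.

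Corticosterone was tested only among mice that also had ketamine, in CORT/Ket against BCD/Ket (3 libraries each). This contrast shares the BCD/Ket libraries with the one above, so their values are not independent. Of 4418 genes tested, 0 passed by edgeR (0% called), 91 had an unadjusted p under 0.05 (2.06%), DESeq2 called 0 (122 at an unadjusted p under 0.05), and 345 genes did not overlap between the groups (7.81%). The smallest p was that of Serp2 (NCBIM37 chr14:76932621-76956665, minus strand), a stress-associated protein of the endoplasmic reticulum. Serp2 was at 67.0, 33.4 and 62.1 CPM in BCD/Ket and at 198, 389 and 159 CPM in CORT/Ket. The groups did not overlap (log2 fold 2.03, SE 0.52, adjusted p = 0.999 by edgeR).

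Scg2 was at 95.7, 66.7 and 141 CPM in BCD/Ket and at 34.9, 14.4 and 22.6 CPM in CORT/Ket, also without overlap (log2 fold -2.18, SE 0.58). Mice 9949, 9967 and 9968 had 2, 3 and 1 UMIs of Scg2, and mouse 9949 had 1 UMI of Serp2, each at or under the floor of 3 UMIs. Scg2 is the granin named above among the genes lower than in both other neuron types. Dkk3, a secreted dickkopf relative, was at 172, 334 and 240 CPM against 81.4, 101 and 48.1 CPM, without overlap (log2 fold -1.70, SE 0.47). Fibcd1 was at 182, 0 and 298 CPM against 0, 43.2 and 25.5 CPM (log2 fold -3.03, SE 0.90), and the groups overlapped.
Fibcd1 was the 1 gene that passed when BCD/Sal mouse 9901 or 9947 was left out of the common fit (adjusted p = 0.0243 and 0.0126 by edgeR), although neither is part of this contrast. Tenm3 (-2.26), Rgs6 (1.89), Limd2 (2.03), Hspe1 (1.99), Slc1a2 (-1.66) and Rprm (1.80) complete the 10 smallest p, and none passed. Slc1a2 was at 345, 2169 and 476 CPM in BCD/Ket and 314, 216 and 292 CPM in CORT/Ket, and mouse 9949 held the highest value. Slc1a2 is also the most abundant gene of the astrocyte list, and the part of astrocyte RNA in it was not tested.

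**Figure D5:**
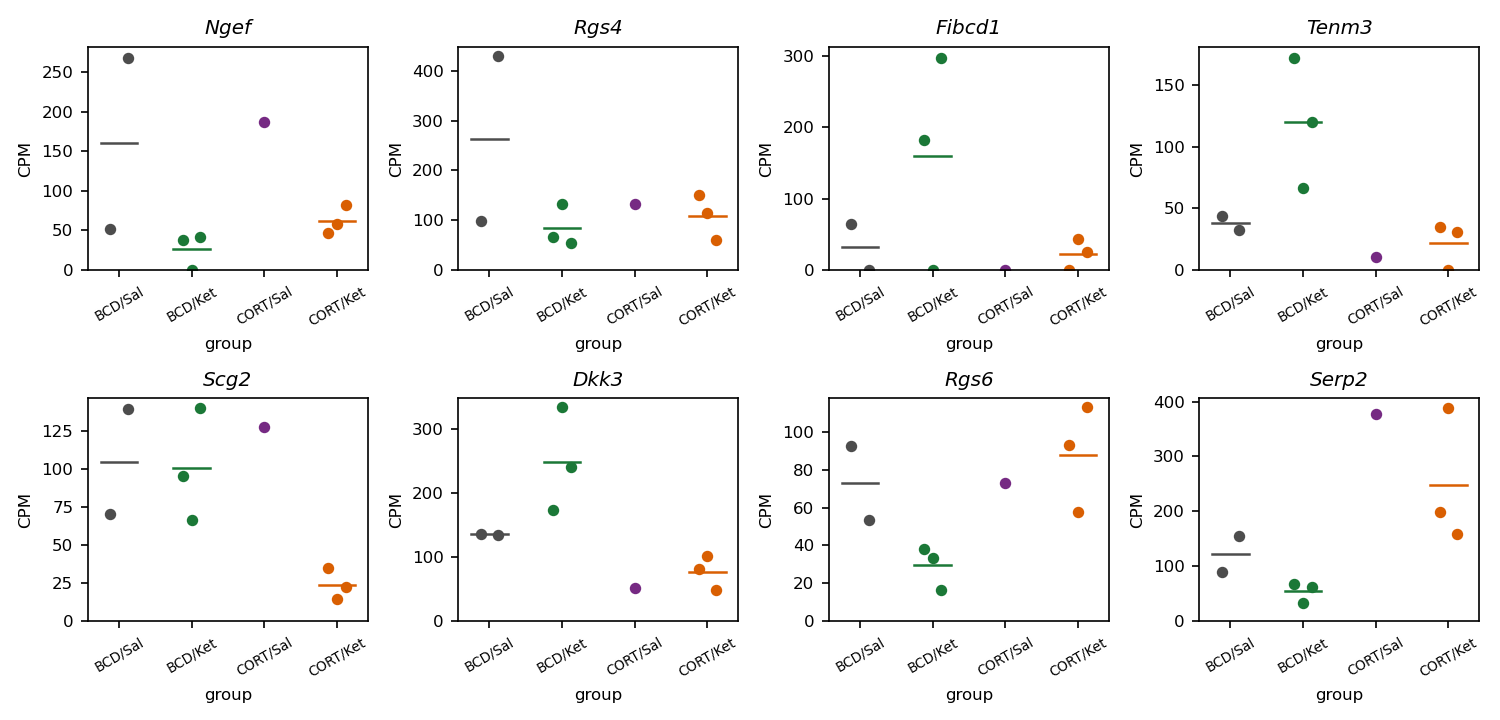
Level (CPM) of 8 genes in the members of each library by treatment group, with lines at group means where a group has more than 1 library. Serp2, Scg2 and Dkk3 do not overlap between BCD/Ket and CORT/Ket, and Ngef and Rgs4 are highest in the same BCD/Sal library (268 and 429 CPM).

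By group, nuclear oxidative phosphorylation genes had 57 of 71 positive log2 folds with corticosterone (median 0.53, against 0.01 over all genes). Their sums were 7545, 9809 and 7141 CPM in BCD/Ket and 9595, 17132 and 7312 CPM in CORT/Ket, with overlap. Ion channel genes had 33 of 44 negative (median -0.19). Their sums overlapped, at 8962, 8908 and 9384 CPM in BCD/Ket and 7606, 6133 and 9268 CPM in CORT/Ket, lowest in mouse 9968. Of the 4 tested hippocampal genes 3 were negative (median -1.41), and cluster 1 held 0 to 15.8% of members in CORT/Ket libraries and 8.33 to 48.4% in BCD/Ket libraries. Among the upper-layer cortical genes 5 of 5 were positive (median 0.37), and among the other excitatory markers 10 of 13 (median 0.27). The sums of both lists overlapped between the groups. Lmo4, the lowest of the other excitatory markers, was at 479, 834 and 393 CPM in BCD/Ket and 291, 187 and 181 CPM in CORT/Ket. The groups did not overlap in Lmo4 (log2 fold -1.25, SE 0.43, adjusted p = 0.999 by edgeR).

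Genes of the PCP pathway, which the study followed, and of the response to corticosteroids included 0 that passed in either treatment contrast. Celsr2 was at 256 and 220 CPM in BCD/Sal, 373, 267 and 265 in BCD/Ket, 191 in CORT/Sal, with CORT/Ket at 314, 216 and 215. Its log2 fold was 0.28 with ketamine (95% interval -0.58 to 1.14) and -0.26 with corticosterone (-1.06 to 0.55). Celsr3, its paralogue, was at 151 and 42.9 CPM in BCD/Sal, 86.2, 133 and 141 in BCD/Ket, 48.5 in CORT/Sal, with CORT/Ket at 116, 43.2 and 173, so every group with several libraries overlapped the others. Prickle2, a cytoplasmic PCP partner at synapses, was at 121 and 145 CPM in BCD/Sal, 172, 100.1 and 141 in BCD/Ket, 97.0 in CORT/Sal, with CORT/Ket at 151, 144 and 102 (log2 folds 0.07 and -0.14, SE 0.45 and 0.44). These intervals leave room for changes in either direction. Of 21 listed PCP genes 7 could be tested, with a median of 0.16 with ketamine and -0.14 with corticosterone, and 0 passed.

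Nr3c1, the glucocorticoid receptor gene, was at 79.1 and 129 CPM in BCD/Sal, 144, 133 and 62.1 in BCD/Ket, 104 in CORT/Sal, with CORT/Ket at 116, 115 and 67.9 (log2 folds -0.04 and -0.09, SE 0.54 and 0.53). Nr3c2, the mineralocorticoid receptor gene, lay between 0 and 86.9 CPM. Klf9, a glucocorticoid-induced transcription factor gene, had a log2 fold of -0.75 with corticosterone (SE 0.45). Of 22 listed glucocorticoid targets 5 could be tested and 0 passed. With ketamine 4 of the 5 were positive (median 0.25), and with corticosterone 3 were negative (median -0.75). Fkbp5, Sgk1 and Tsc22d3 were below the filter on low counts and were not tested.

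CORT/Sal was represented by mouse 9969 alone, so its values carry counting intervals and no test. Serp2 was at 378 CPM (exact Poisson 95% interval 310 to 456), near the highest CORT/Ket library. Rprm, a p53-regulated cell cycle gene, was at 496 CPM (418 to 584), above the 8 other libraries, of which the highest was at 207 CPM. Ngef, at 187 CPM (141 to 244), was second only to mouse 9947. Scg2 was at 128 CPM (90.3 to 177) and within the BCD/Ket range. Celsr2, at 191 CPM (144 to 248), Celsr3, at 48.5 CPM (26.5 to 81.4), and Prickle2, at 97.0 CPM (64.5 to 140), lay at the low end of the libraries, and Celsr2 and Prickle2 were the lowest of the 9. The intervals of all 3 reached values of other libraries.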

How the data were processed

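The authors deposited unnormalized UMI counts for each gene and barcode, from Cell Ranger (3.0.2 per the file headers). Per the study's methods the reads were aligned to mm9 and analysed with Seurat 3.1.1. The gene set goes beyond an mm9 annotation, so Ensembl identifiers were looked up in GENCODE M1 (NCBIM37) for coordinates. No deposited cell annotation was used. The members, comparisons and gene lists were chosen with earlier results of these data known.

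Counts of the members were summed per library (29973 to 594349 UMIs) and tested with the robust quasi-likelihood method of edgeR 4.0.16 (R 4.3.3), after filterByExpr and TMM scaling, in 1 fit of the 8 libraries of BCD/Sal, BCD/Ket and CORT/Ket. Neuron types were compared within mice holding at least 10 barcodes of both, with the mouse as a block, since both sums come from 1 library of that animal. A call needed an adjusted p under 0.05 (Benjamini-Hochberg). Standard errors are the log2 fold over the root of the F statistic. The script was tested on simulated data. Named genes were those of the lists, the 15 largest called changes in each direction that were the same in every mouse, or, where fewer than 10 genes passed, the 10 smallest p, and some of them are not reported here. The comparison with GABAergic neurons was added after the barcode numbers were seen. Shares were compared by exact permutation tests.

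Members were clustered with scanpy 1.11.5 and leidenalg 0.10.2 (2000 variable genes, 20 components, 15 neighbours, resolution 0.6, seed 1). Doublets were not removed, and an alternative left out the highest Scrublet scores. Further alternatives were RLE factors, DESeq2 1.42.0, other limits on genes, mitochondrial share and marker UMIs, and each library left out. The p-values of the treatment contrasts and of the shares measure the spread between single mice. In the neuron type fits with the mouse as a block, they concern differences between types within mice. Mice 9901 and 9947 alone entered the comparison with Slc17a6 neurons, so its p-values rest largely on a dispersion pooled over genes (common dispersion 0.0169). Those p-values say little about how a single gene varies between mice.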

Additional observations from a re-analysis of the deposited data

Results flagged for a closer look

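Barcodes of 2 kinds outside the comparisons met the other limits of the selection. In CORT/Sal mouse 9970, whose library was left out by the rule, 965 of 2397 kept barcodes (40.3%) met them, against 1.82 to 21.6% in the 9 libraries used. That library also had a median mitochondrial share of 3.22% over all barcodes, against 33.2 to 57.9% in the others. In the 9 libraries used, 2616 barcodes above the limit of 12.5% mitochondrial UMIs met every other limit, with a median depth of 1735.5 UMIs, against the 651 members. No treatment group held more than 3 libraries, so no library was tested as an outlier within its group, and with 1 CORT/Sal library the difference between the ketamine effects with and without corticosterone was not tested.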

How the results depend on the processing

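Both treatment contrasts stayed at 0 calls with RLE factors, DESeq2, stricter limits on genes, marker or glial UMIs, and the highest Scrublet scores removed. So they did with only the groups of the contrast, with an additive model, and with 5 alternatives chosen after seeing the data. Of these, some used a term for the 3 libraries high in Gm42418, members thinned to 2000 UMIs, or libraries with at least 20 members. The others left out the cluster led by Fibcd1 or the hemoglobin barcode. At most 5% mitochondrial UMIs left 3, 1, 5 and 3 members in mice 9947, 9946, 9949 and 9967, too few for the fit. Mouse 9901 was then alone in BCD/Sal and mouse 9986 alone in BCD/Ket, so that fit cannot bear on either contrast. Without a filter on low counts each had 1 call (Cartpt with ketamine, Fibcd1 with corticosterone). Leaving out 1 library at a time gave 0 to 14 calls with ketamine, the 14 without mouse 9901, and 0 to 1 with corticosterone. The cause was not tested.

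The comparison with Slc17a6 neurons (7 calls) gave 0 with DESeq2, 3 with at least 5 marker UMIs, 1 with Slc17a6 neurons of at least 3 marker UMIs, and 20 with at least 5 barcodes of each type. That with GABAergic neurons (245 calls) gave 560 without a filter on low counts, 145 with at least 1000 genes, and 192 to 225 with 1 mouse left out. With no replicate block, that is without pairing by mouse, the counts were 0 and 115, of which 113 were shared with the 245. The limit of 5% mitochondrial UMIs, and for Slc17a6 neurons leaving out a mouse, were not run because too few mice were left.

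The ketamine difference in share (-12.7 percentage points) reversed to 1.52 among neurons only and ran from -14.4 to -9.996 with 1 library left out, and the corticosterone difference from 0.0461 to 6.26. Mice 9949 and 9968 had the fewest members, 12 and 17, and the fewest UMIs.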

Other observations

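Mitochondrial and ribosomal protein transcripts aside, the most abundant RNAs of the members were long noncoding. Malat1, a nuclear RNA, was at 60821 and 15003 CPM in BCD/Sal, 28150, 32563 and 59093 in BCD/Ket, 48146 in CORT/Sal, then 42741, 35689 and 62875 in CORT/Ket. The lowest 2 values belong to mice 9947 and 9946. Meg3, an imprinted RNA, ranged from 8290 to 31095 CPM and Snhg11 from 3520 to 9107 CPM, both lowest in mouse 9947. Among the remaining mRNAs, and apart from hemoglobin in mouse 9968, the AMPA receptor subunit gene Gria2 had the highest mean, at 3059 ± 1044 CPM (SD, n = 9).

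Cartpt, a neuropeptide gene, was at 257.6 CPM in BCD/Sal mouse 9947 and 180.2 CPM in CORT/Sal mouse 9969. It was at 42.1 CPM in BCD/Sal mouse 9901 and at most 9.6 CPM in the 6 ketamine libraries, 3 of which were at 0. The 3 at 0 were mice 9949, 9967 and 9968, where 3 UMIs equal 100, 34.9 and 43.2 CPM. The 0 of mice 9949 and 9968 thus does not place them below mouse 9901. Cartpt was below the filter on low counts and was noticed after its values were seen.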
